A study of Mus musculus with 6 samples.

Results

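The genes for antigen presentation by MHC class II examined here were *H2-Aa*, *H2-Ab1*, *H2-Eb1*, *Cd74*, *H2-DMa*, *H2-DMb1* and *Ciita*. They were taken by symbol, and these 7 are among the 55367 gene symbols listed for each library. RNA was sequenced from mouse kidney cells that bind Dolichos biflorus agglutinin (DBA), a plant lectin used to capture collecting duct epithelium on beads. The study asked how gene expression in these cells differs in autosomal dominant polycystic kidney disease (ADPKD) and after treatment with MMPP, a PEG-coated, manganese-chelated melanin-like nanoparticle that scavenges reactive oxygen species. Each of the 3 groups had 2 libraries, from mice labelled Day115. The WT group was labelled wild type and received saline. The ADPKD group was labelled Pkd1-/- and received saline. The ADPKD+MMPP group had the same genotype and received MMPP by vein. The knockout was made in male Pkd1 fl/fl;Cre/Esr1+ mice by tamoxifen, which activates the Cre recombinase. The promoter that drives Cre is not given in the sources used here, nor is whether the WT mice carried Cre. The labels do not say that replicates came from separate mice, so p-values measure only the spread between these libraries. They also name both DBA-positive cells and whole kidney as the source of RNA.

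MHC class II molecules are pairs of an alpha and a beta chain that carry peptides from internalised proteins to the cell surface, where CD4 T cells read them. CD74, the invariant chain, fills the peptide groove during assembly, and the H2-DM heterodimer later exchanges its remnant for antigenic peptide. CIITA is the coactivator that switches on these genes together. Dendritic cells, B cells and macrophages carry class II in the resting kidney, and tubular epithelium can make it after exposure to interferon gamma.

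CIITA does not bind DNA itself. It is recruited to class II promoters by factors on an X box, which binds the RFX complex and CREB-family proteins, and on a Y box, which holds the letters CCAAT and binds NF-Y. Promoters of an alpha and a beta chain are shown because CREB is the factor the study examined, and because the 2 chains' genes carry different letters in the same place. The sequences are the 110 bases before the RefSeq start site in GRCm38.p6, the alpha chain at chr17:34287824-34287933 on the minus strand and the beta chain at chr17:34305757-34305866 on the plus strand. Capitals mark TGACGTCA, the palindromic CREB site, GATGATGC, and CCAAT or its reverse complement ATTGG.
H2-Aa: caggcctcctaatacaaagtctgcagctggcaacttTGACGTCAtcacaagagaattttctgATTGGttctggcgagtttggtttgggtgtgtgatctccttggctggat
H2-Eb1: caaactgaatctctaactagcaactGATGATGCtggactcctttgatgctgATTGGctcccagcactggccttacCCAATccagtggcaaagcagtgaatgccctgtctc
Both promoters had 18 bases between the upstream motif and ATTGG. In *H2-Aa* TGACGTCA lay from -74 to -67 and ATTGG from -48 to -44, counted back from the base before the start. In *H2-Eb1* GATGATGC lay from -85 to -78 and ATTGG from -59 to -55, and a CCAAT from -35 to -31. *H2-DMb1* carried GATGATGC from -88 to -81 and ATTGG from -61 to -57, with 19 bases between them. For *H2-DMa* there were 2 RefSeq starts, of which the first held none of these letters and the second only an ATTGG from -198 to -194. Searched on both strands of all 32851 promoter windows of RefSeq, which run from 250 bases before a start to 50 after it, CCAAT was present in 37.4%, TGACGTCA in 1.79% and GATGATGC in 0.703%. The letters were chosen after the promoters had been read, no motif overlapped another in the 2 sequences shown, and binding was not measured in these libraries. *H2-Ab1* and *Ciita* are named only.

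*Pkd1*, the gene knocked out, had 17.7 and 17.2 FPKM in WT, 7.64 and 8.91 in ADPKD and 4.34 and 3.99 in ADPKD+MMPP. FPKM scales the fragments on a gene to its exon length and to the depth of its library, so that levels of different genes can be set side by side. The depth recovered from the values ran from 30.6 to 33.1 M reads over WT and ADPKD, and was 11.8 and 10.9 M reads for the treated pair. The ADPKD+MMPP values also differed in form: their low values were odd numbers of reads in 7.62% and 7.20% of cases, against 33.9% to 35.2% elsewhere. This difference and the treatment cannot be told apart. *Aqp2*, the water channel of principal cells, had between 677 and 3555 FPKM over all libraries, so collecting duct RNA was present in each. The summed FPKM of 8 proximal tubule markers was 339 and 142 in WT, 636 and 98.7 in ADPKD, and 13385 and 12672 in ADPKD+MMPP. Most of the treated sums was *Kap*, at 12820 and 12120. Both treated libraries lay above both ADPKD libraries for 7 of the 8 markers and below them for *Slc5a12*. For *Slc34a1* they overlapped WT.

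The structural genes lie in the MHC on chromosome 17 of GRCm38, with *H2-DMa* from 34119541 to 34139101, *H2-DMb1* from 34153072 to 34160230, *H2-Ab1* from 34257689 to 34269419, *H2-Aa* from 34282744 to 34287823 and *H2-Eb1* from 34305867 to 34316674. *Ciita* lies on chromosome 16 from 10480059 to 10528418, and *Cd74* on chromosome 18 from 60803848 to 60812652. FPKM here covers the exons of a whole gene. Some of these genes share bases with others on the opposite strand in GENCODE vM21, *H2-Eb1* with the antisense gene *Gm20513*, *Ciita* with *Dexi* and *H2-DMa* with *Brd2*. Strand use in counting is not given in the sources used here, so reads from such partners could not be separated. The coding sequence of *H2-DMb1* was identical to that of its neighbour *H2-DMb2* in 754 of 786 bases, 95.9%, so reads may have been split between them and the value of each is uncertain.

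*Cd74* and the classical chains were abundant in these libraries, and their regulator was scarce. Which cells carried this RNA cannot be told from such bulk values. In both WT and both ADPKD libraries the level in FPKM fell in the order *Cd74*, *H2-Eb1*, *H2-Ab1*, *H2-Aa*, *H2-DMb1*, *H2-DMa* and *Ciita*. In both ADPKD+MMPP libraries the order was *Cd74*, *H2-DMb1*, *H2-Eb1*, *H2-Aa*, *H2-Ab1*, *Ciita* and *H2-DMa*. Neighbours in these orders did not overlap between the libraries of WT or of ADPKD+MMPP, while in ADPKD the ranges of *H2-Aa*, *H2-Ab1*, *H2-Eb1* and *Cd74* overlapped from one to the next.

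**Figure D1:**
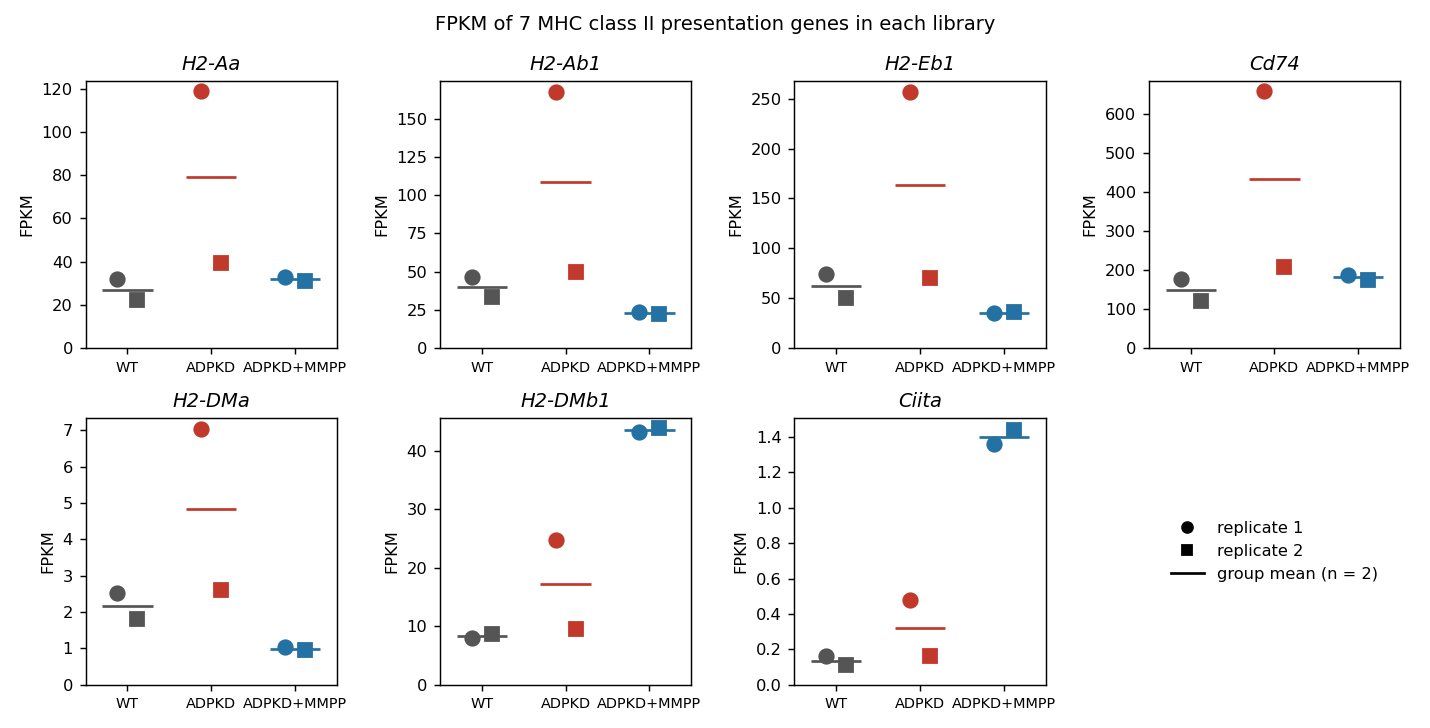
FPKM of each gene (vertical axis, from 0, 1 scale per panel) in the 2 libraries of WT, ADPKD and ADPKD+MMPP, with circles for replicate 1, squares for replicate 2 and lines for group means. ADPKD replicate 1 stands far above ADPKD replicate 2 in every panel, while the 2 ADPKD+MMPP libraries lie close together.

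Among the classical chains, *H2-Aa*, the alpha chain of I-A, had 32.0 and 22.1 FPKM in WT, 119 and 39.4 in ADPKD and 33.1 and 31.0 in ADPKD+MMPP. *H2-Ab1*, its beta chain, had 46.8 and 33.6 in WT, 167 and 49.5 in ADPKD and 23.7 and 22.3 in ADPKD+MMPP. *H2-Eb1*, the beta chain of I-E, had 74.4 and 49.8 in WT, 257 and 70.2 in ADPKD and 35.4 and 35.9 in ADPKD+MMPP. For all 3 chains ADPKD replicate 1 was the highest library by far, and ADPKD replicate 2 was close to the upper WT library, which for *H2-Eb1* was above it. *H2-Ab1* and *H2-Eb1* were lower in both ADPKD+MMPP libraries than in any other library, and *H2-Aa* was not.

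*Cd74*, the invariant chain, had 176 and 121 FPKM in WT, 656 and 207 in ADPKD and 187 and 175 in ADPKD+MMPP. It followed *H2-Aa* library by library, with both treated libraries below both ADPKD libraries and overlapping the WT libraries. *H2-DMa*, the alpha chain of the peptide exchange factor, had 2.52 and 1.82 in WT, 7.04 and 2.61 in ADPKD and 1.03 and 0.957 in ADPKD+MMPP, the last from 42 and 36 reads. *H2-DMb1*, its beta chain, had 8.05 and 8.69 in WT, 24.7 and 9.59 in ADPKD and 43.1 and 43.8 in ADPKD+MMPP. The alpha chain was thus lowest and the beta chain highest in the treated libraries.

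*Ciita*, the coactivator, had 0.161 and 0.112 FPKM in WT, 0.479 and 0.160 in ADPKD and 1.36 and 1.44 in ADPKD+MMPP, from between 33 and 153 reads per library. It was highest in the treated libraries, and its WT and ADPKD values overlapped. A gene was tested if its FPKM reached 1 in 2 or more libraries, and *Ciita* passed this filter only through its ADPKD+MMPP values. The other 6 members did not depend on one group to pass.

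In ADPKD against WT, *H2-Aa* and *Cd74* rose and the other members were not called. Mean *H2-Aa* went from 27.1 ± 7.0 to 79.1 ± 56.2 FPKM (SD, n = 2 each) and mean *Cd74* from 148 ± 38.5 to 432 ± 318 (SD, n = 2 each). Tests were made with limma on log2(FPKM + 1), a scale that understates the change of low genes, and calls needed a change of 1.5-fold or more with an unadjusted P under 0.05, the thresholds of the study. The log2 fold change was 1.33 for *H2-Aa* (standard error 0.50, limma adjusted p = 0.105 by Benjamini-Hochberg over all 14862 genes tested) and 1.33 for *Cd74* (standard error 0.53, adjusted p = 0.12 from limma). Neither passed at an adjusted p under 0.05. Changes of the uncalled members were 1.18 for *H2-Ab1* (adjusted p = 0.165 from limma), 1.13 for *H2-Eb1*, 0.82 for *H2-DMb1*, 0.77 for *H2-DMa* and 0.21 for *Ciita*.

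Of the 7 members 2 were called in ADPKD against WT, both higher, where 26.7% of all tested genes were called, 14.2% higher and 12.5% lower. The share among the members is close to this background. The ADPKD libraries did not overlap the WT libraries for 5 members, all higher. The share of all tested genes without overlap was not computed in any comparison, so such counts have no background beside them. The median log2 fold change of the members was 1.13 and that of all tested genes 0.03. Both calls rested on ADPKD replicate 1. Without it *H2-Aa* was at 0.55 and *Cd74* at 0.50 with no member called, and without ADPKD replicate 2 the calls were 6 of 7, with *H2-Ab1* at 2.05 and *H2-Eb1* at 2.06 on the log2 scale. Leaving out any one of the WT or ADPKD+MMPP libraries also left 0 members called.

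**Figure D2:**
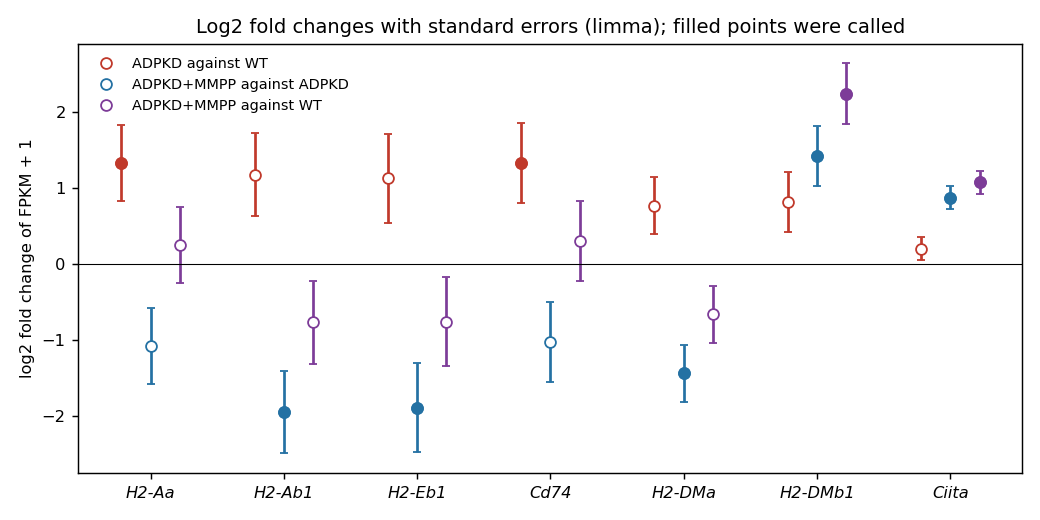
Log2 fold change of FPKM + 1 (vertical axis) for each gene in ADPKD against WT, ADPKD+MMPP against ADPKD and ADPKD+MMPP against WT, with standard errors from limma (2 libraries per group) and filled points where the gene was called. *H2-Ab1*, *H2-Eb1* and *H2-DMa* were called lower after treatment and *H2-DMb1* and *Ciita* higher, with *H2-Aa* and *Cd74* called in ADPKD against WT.

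Every member differed in the same direction between the 2 ADPKD replicates. ADPKD replicate 1 exceeded replicate 2 by 2.58-fold for *H2-DMb1*, the lowest of the 7, and by 3.66-fold for *H2-Eb1*, the highest. Among 14754 tested genes above 0 in replicate 2, 757 had a fold of at least 2.58, which is 5.13%, and the median fold of all of them was 1.02. *H2-DMb2* differed by 4.56-fold in the same direction.

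Genes of other cell types did not all follow this difference. The 9 tested macrophage markers had a median fold of 0.818 between ADPKD replicate 1 and 2, with 2 of them higher in replicate 1, and the 7 processing genes had 0.851 with 0 higher. All 10 tested collecting duct markers were higher in replicate 1, with a median of 2.51, and so were all 8 proximal tubule markers, with a median of 5.15. Leukocyte markers had a median of 1.48 (4 of 6 higher), dendritic cell markers 1.75 (3 of 4 higher) and B cell markers 2.02 (2 of 2 higher). What part these cells have in the members' levels was not tested, and in such bulk samples fewer cells of a type and less RNA per cell cannot be told apart.

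**Figure D3:**
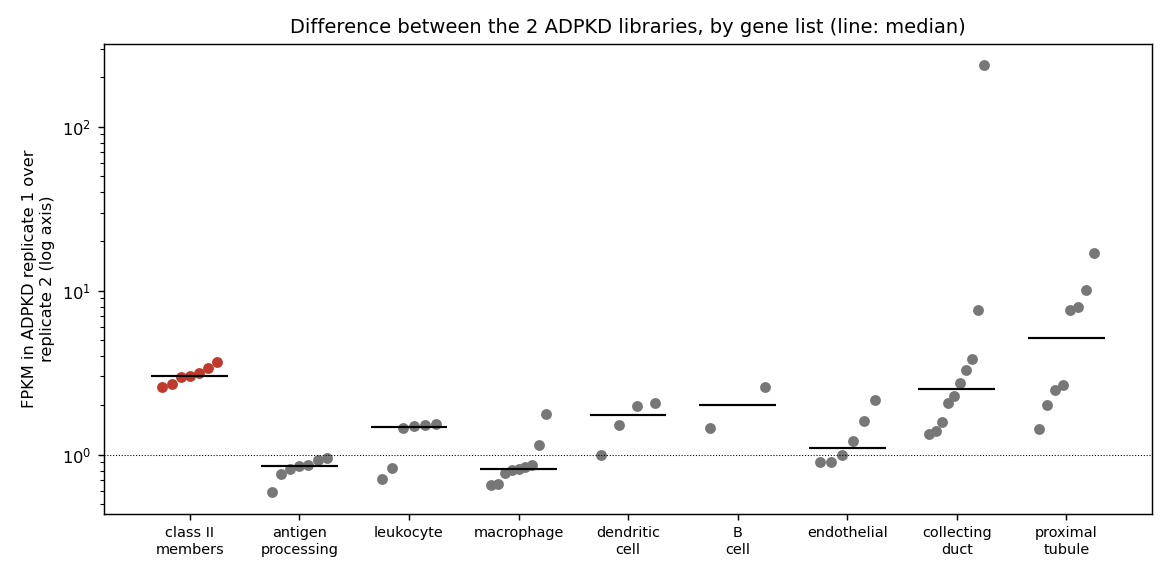
FPKM in ADPKD replicate 1 divided by FPKM in ADPKD replicate 2 (log axis) for the tested genes of each list, 1 point per gene, with the median of the list as a line and a dotted line at 1. The class II members lie between 2.58 and 3.66, macrophage and processing genes mostly below 1, and tubule markers above 1.

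After MMPP treatment the members split. In ADPKD+MMPP against ADPKD, *H2-Ab1*, *H2-Eb1* and *H2-DMa* fell, *H2-DMb1* and *Ciita* rose, and *H2-Aa* and *Cd74* were not called. Mean *H2-Ab1* went from 108 ± 83.4 to 23.0 ± 0.997 FPKM and mean *H2-Eb1* from 164 ± 132 to 35.7 ± 0.388 (SD, n = 2 each). Mean *H2-DMb1* went from 17.2 ± 10.7 to 43.5 ± 0.501 and mean *Ciita* from 0.320 ± 0.225 to 1.40 ± 0.0586 (SD, n = 2 each). The log2 fold changes were -1.94 for *H2-Ab1* (standard error 0.55, adjusted p = 0.0188 from limma), -1.89 for *H2-Eb1* (0.59, adjusted p = 0.0272 from limma) and -1.43 for *H2-DMa* (0.37, adjusted p = 0.0142 from limma). They were 1.43 for *H2-DMb1* (0.40, adjusted p = 0.018 from limma) and 0.87 for *Ciita* (0.15), which the filter favoured in this comparison; with no filter it was also called (unadjusted p = 0.0021 from limma). *H2-Aa* was at -1.07 (0.50, adjusted p = 0.0974 from limma) and *Cd74* at -1.02 (0.53, adjusted p = 0.126 from limma).

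The 5 of 7 members called, *Ciita* among them, stand beside 70.9% of all tested genes called in ADPKD+MMPP against ADPKD, 27.9% higher and 43.0% lower, so a call in this comparison was common. The treated libraries did not overlap the ADPKD libraries for any member, with 5 lower and 2 higher. With no share of all tested genes beside it, this count is not read as particular to the members. The median log2 fold change was -1.07 over the members and -0.36 over all tested genes, and relative to that shift *H2-Aa*, *Cd74* and the 3 genes called lower were still lower, except that *Cd74* was higher when centred by exon share. Without either one of the ADPKD+MMPP libraries only *Ciita* and *H2-DMa* were called, and without ADPKD replicate 2 all 7 were.

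Against WT, the treated libraries were higher in *H2-DMb1* and *Ciita*. *H2-DMb1* had a log2 fold change of 2.25 (standard error 0.40, adjusted p = 0.00279 from limma) and *Ciita* 1.08 (standard error 0.15), again favoured by the filter and also called with none (unadjusted p = 0.000907 from limma). Means over the 2 libraries were 5.20-fold and 10.3-fold those of WT in FPKM. The other members were not called, at 0.26 for *H2-Aa*, 0.31 for *Cd74*, -0.76 for both *H2-Ab1* and *H2-Eb1*, and -0.66 for *H2-DMa*. In ADPKD+MMPP against WT 73.9% of all tested genes were called, 30.1% higher and 43.8% lower. Both treated libraries lay below both WT libraries for *H2-Ab1*, *H2-Eb1* and *H2-DMa*, of which *H2-Eb1*, at 0.38, and *H2-DMa*, at 0.48, turned when centred by exon share. These 3 were called lower, which made 5 calls, when either ADPKD library was left out.

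The changes after treatment depended on one further choice. Genes differ in how much of their exon sequence belongs to a single annotated transcript, and each library was also centred within 20 bins of that share over 12374 protein-coding genes. The share was 70.9% for *H2-Aa*, 54.7% for *H2-Ab1*, 51.7% for *Ciita*, 46.9% for *H2-DMb1*, 43.6% for *H2-DMa*, 41.6% for *H2-Eb1* and 16.0% for *Cd74*. Centred in this way, *H2-Aa* and *H2-Ab1* both stood at -1.28 on the log2 scale in the treated group relative to ADPKD, and both were called. *H2-Eb1* was at -0.77 and *H2-DMa* at -0.32, neither called, and *Cd74* turned to 0.75, not called. *H2-DMb1* at 2.32 and *Ciita* at 1.52 were called higher. Against WT the centred value of *Cd74* was 2.24 and was called.

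**Figure D4:**
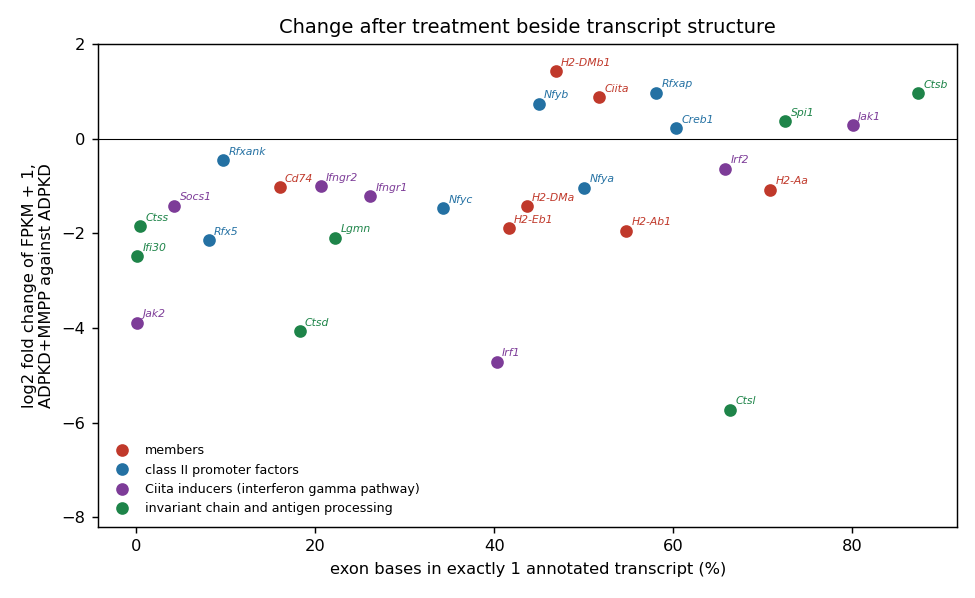
Log2 fold change of FPKM + 1 in ADPKD+MMPP against ADPKD (vertical axis) beside the percentage of a gene's exon bases in exactly 1 annotated transcript (horizontal axis), 1 point per reported gene of 4 lists. *Cd74* lies at 16.0%, and *H2-DMa* at 43.6% and *H2-DMb1* at 46.9% lie close together on the horizontal axis with changes of -1.43 and 1.43.

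Ratios of members within a library do not depend on a factor applied to the whole library, though they do depend on the centring by exon share. *Cd74* stood at between 5.26 and 5.66 times *H2-Aa* in all 6 libraries, and *H2-Eb1* at between 1.42 and 1.61 times *H2-Ab1*. In the deposited FPKM these pairs kept their proportion while their levels in ADPKD replicate 1 were between 3.02 and 3.66 times those of ADPKD replicate 2. Other pairs shifted in the treated libraries. The ratio of *H2-Aa* to *H2-Ab1*, the chains of one heterodimer, was between 0.657 and 0.796 in WT and ADPKD and 1.40 and 1.39 in ADPKD+MMPP. *Cd74* over *H2-Ab1* was between 3.60 and 4.18 and then 7.90 and 7.87. Centring by exon share changed which pairs shifted. The centred log2 changes after treatment were -1.28 for both *H2-Aa* and *H2-Ab1*, but 0.75 for *Cd74* against -1.28 for *H2-Aa*, and -0.77 for *H2-Eb1* against -1.28 for *H2-Ab1*.

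The DM chains also parted. *H2-DMb1* over *H2-DMa* ran from 3.19 to 4.78 over the 4 libraries of WT and ADPKD and reached 41.8 and 45.8 in the treated ones. *Ciita* over *H2-Ab1* was between 0.00286 and 0.00344 and then 0.0574 and 0.0647. In WT and ADPKD the coactivator and its target thus kept a near constant ratio, which was higher in both treated libraries.

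**Figure D5:**
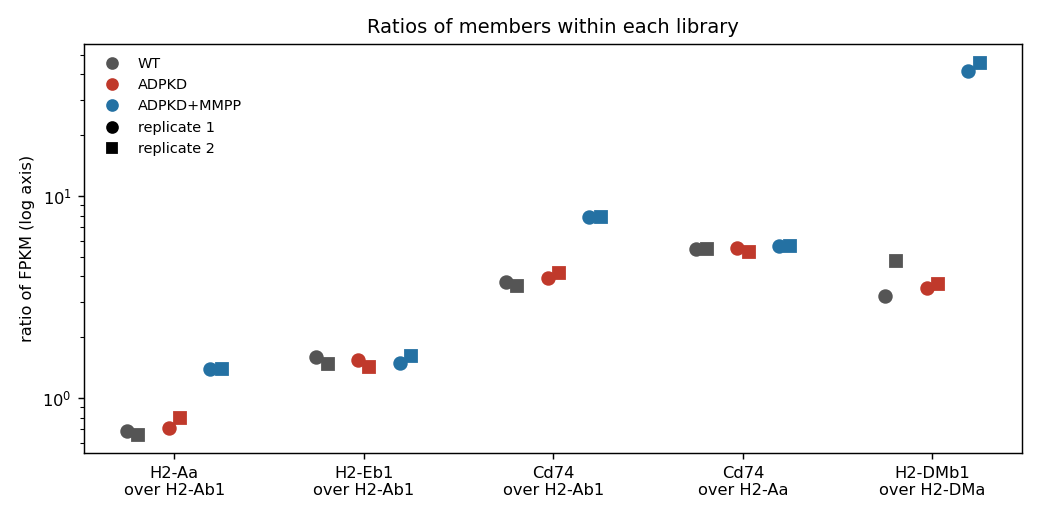
Ratio of FPKM between members (log axis) in each library, coloured by group, with circles for replicate 1 and squares for replicate 2. *Cd74* over *H2-Aa* and *H2-Eb1* over *H2-Ab1* lay close together over all 6 libraries, while *H2-DMb1* over *H2-DMa* rose from between 3.19 and 4.78 to 41.8 and 45.8 in ADPKD+MMPP.

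Other genes of the class II locus were low. *H2-DMb2*, the second DM beta chain, had 0.637 and 0.629 FPKM in WT, 5.21 and 1.14 in ADPKD and 4.36 and 4.09 in ADPKD+MMPP. Its log2 fold change was 1.16 in ADPKD against WT (not called), 0.52 in ADPKD+MMPP against ADPKD (not called) and 1.68 in ADPKD+MMPP against WT (called higher, adjusted p = 0.0177 from limma). *H2-Oa* and *H2-Ob*, the chains of the DO inhibitor of DM, did not pass the filter. *H2-Oa* had 0.837 and 0.803 FPKM in WT, 0.301 and 0.333 in ADPKD and 0.120 and 0.130 in ADPKD+MMPP, the last from 2 reads each, which is under the floor of 3 reads. *H2-Ob* ranged from 0.0290 to 1.03 FPKM and *H2-Eb2* from 0 to 0.432, and *H2-Ea*, the alpha chain of I-E, was listed at 0 in all libraries but ADPKD replicate 1.

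None of the factors that bring CIITA to class II promoters was called in ADPKD against WT. All 7 were tested in limma, and 4 had an unadjusted P under 0.05 with a change of FPKM + 1 under 1.5-fold. These were *Rfx5* at 0.46, *Rfxap* at 0.37, *Nfyc* at -0.39 and *Creb1* at -0.57 on the log2 scale. In FPKM itself *Creb1* passed 1.5-fold, with 3.53 and 3.58 in WT and 1.99 and 2.14 in ADPKD, a ratio of means of 0.581. After treatment *Rfx5*, *Nfya* and *Nfyc* fell, at -2.14, -1.04 and -1.47, and *Rfxap* and *Nfyb* rose, at 0.97 and 0.74. *Rfx5*, a subunit of the complex on the X box, had 6.29 and 6.5 FPKM in ADPKD and 0.586 and 0.767 in ADPKD+MMPP. *Creb1* was at 0.23 after treatment and was not called. Centred by exon share, *Rfx5* was at -0.034, *Nfyc* at -0.088 and *Nfya* at -0.39, while *Rfxap* and *Nfyb* were at 1.32 and 1.63.

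Of the interferon gamma pathway, which induces *Ciita*, 7 tested genes are reported. In ADPKD against WT the receptor chain *Ifngr2* rose by 1.48 on the log2 scale, while *Irf1* at -1.06 and *Irf2* at -0.70 fell. After treatment 6 of the 7 fell, where 43.0% of all tested genes were called lower. Of these 6, *Ifngr1*, *Ifngr2* and *Socs1* turned to 0.51, 0.76 and 0.69 when centred by exon share and *Irf2* to 0.014 under quantile normalization. *Irf1*, a transcription factor that acts at the *Ciita* gene, had 151 and 134 FPKM in WT, 85.9 and 53.0 in ADPKD and 1.64 and 1.59 in ADPKD+MMPP. The kinase *Jak2* had 27.5 and 28.2 in ADPKD and 0.876 and 1.02 in ADPKD+MMPP. *Ciita* was thus highest in the libraries in which *Irf1* and *Jak2* were lowest. The share of exon bases in 1 transcript was 0.0795% for *Jak2* and 40.3% for *Irf1*, and the centred changes of *Jak2* and *Irf1* were -1.78 and -3.60.

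Of the list of invariant chain and antigen processing genes, which holds proteases, the thiol reductase gene *Ifi30* and the transcription factor gene *Spi1*, all 7 were called higher in ADPKD against WT, where 14.2% of all tested genes were. Their median log2 fold change was 1.73 and that of all tested genes 0.03. *Ctss*, the protease that removes the last part of the invariant chain in antigen-presenting cells, had 11.5 and 9.16 FPKM in WT and 74.4 and 126 in ADPKD, a change of 3.12 (adjusted p = 0.00332 from limma). *Spi1*, which encodes the myeloid transcription factor PU.1, rose by 2.29 and *Lgmn*, an asparaginyl endopeptidase, by 2.23. Their ADPKD libraries differed in the direction opposite to that of the class II members. After treatment, where 43.0% of all tested genes were called lower, 5 of the 7 fell, with *Ctsl* at -5.72 and *Ctsd* at -4.06. *Ctsb* rose by 0.96 and *Spi1*, at 0.37, was not called. Centred by exon share, *Ctsl* was at -5.74 and *Ctsd* at -2.30, and *Ctss* turned to 0.26 and *Ctsb* to -0.15.

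Of the genes for class II turnover and costimulation 3 of 5 were tested. *Cd86*, a ligand of CD28, had 1.81 and 1.46 FPKM in WT, 9.22 and 6.48 in ADPKD and 4.86 and 4.11 in ADPKD+MMPP. It rose by 1.73 in ADPKD and fell by 0.68 on the log2 scale after treatment. *Cd40* and *Marchf8*, a ubiquitin ligase, were not called in ADPKD and fell after treatment, at -1.62 and -1.39. *Cd80* and *Marchf1* stayed under 1 FPKM in all libraries.

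Markers of immune cells differed among themselves in how they moved with the groups. The summed FPKM of the 7 members was 340 and 237 in WT, 1232 and 378 in ADPKD and 325 and 311 in ADPKD+MMPP. That of 10 macrophage markers was 88.8 and 86.5, then 534 and 648, then 1175 and 1228. In ADPKD 8 of the 9 tested macrophage markers were called higher and *Mrc1* lower, where 14.2% of all tested genes were called higher and 12.5% lower. After treatment *C1qa*, *C1qb*, *C1qc*, *Fcgr1* and *Lyz2* rose, and *Adgre1*, *Csf1r* and *Cd68* fell, while centring by exon share reversed 6 of the 9 directions, with *Fcgr1*, *Lyz2* and *Csf1r* the exceptions. Summed over 6 genes, leukocyte markers were at 36.3 and 23.4 in WT, 53.0 and 54.0 in ADPKD and 66.6 and 57.2 in ADPKD+MMPP, with 5 of 6 called higher in ADPKD. *Ptprc*, which encodes CD45, had 0.931 and 0.602 FPKM in WT, 3.26 and 2.23 in ADPKD and 0.315 and 0.501 in ADPKD+MMPP. It was called higher in ADPKD and lower after treatment. It passed the filter only through its ADPKD values, so the filter favoured both calls. *Cd52* was instead called higher after treatment, from 11.5 and 7.54 FPKM in ADPKD to 26.5 and 19.5. The remaining 4 leukocyte markers were not called after treatment.

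The ratio of class II to a marker in the same library depended on the marker. *H2-Ab1* over *Ptprc* was 50.3 and 55.9 in WT, 51.4 and 22.1 in ADPKD and 75.3 and 44.5 in ADPKD+MMPP, with the groups overlapping. For *Laptm5*, another leukocyte marker, the ratio was 8.805 and 12.1 in WT, 10.98 and 2.691 in ADPKD and 1.839 and 1.499 in ADPKD+MMPP. For *Itgax*, a dendritic cell marker, it was 82.86 and 65.83, then 59.49 and 26.72, then 3.515 and 2.779. The ratios to *Laptm5* and *Itgax* were thus lower in both treated libraries than in any other library. *H2-Ab1* over *Cd79b*, a B cell receptor subunit, lay between 36.6 and 86.9 in the 5 libraries where *Cd79b* was above 0. The highest of these rested on 4 reads of *Cd79b*. *Cd79a*, the other tested B cell marker, had 2.47 and 1.95 FPKM in WT, 0.809 and 0.557 in ADPKD and 2.67 and 1.38 in ADPKD+MMPP. It was called lower in ADPKD and higher after treatment, where *Cd79b* was called lower. Centring by exon share reversed both directions after treatment. *H2-Ab1* over *Lyz2*, a lysozyme of macrophages, was 6.14 and 3.87 in WT, 0.891 and 0.221 in ADPKD and 0.0417 and 0.0394 in ADPKD+MMPP. *H2-Ab1* over *C1qa* was 3.28 and 2.91, then 1.45 and 0.351, then 0.0981 and 0.0822. *H2-Ab1* over *Csf1r*, the receptor for macrophage growth factor, went the other way in the treated libraries, from between 1.93 and 9.83 in WT and ADPKD to 62.1 and 117. Those treated ratios rested on 26 and 12 reads of *Csf1r*. These ratios are a description, and their relation to class II was not tested.

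Markers of lymphoid and dendritic cells had low sums. Summed FPKM lay between 2.12 and 5.02 for 6 B cell markers, between 1.39 and 5.09 for 6 T cell markers and between 7.65 and 14.5 for 8 dendritic cell markers. *Ms4a1*, which encodes CD20, had at most 0.169 FPKM and *Flt3*, the growth factor receptor of dendritic cells, at most 0.165. *Xcr1* was listed at 0 in WT replicate 1, *Cd209a* in WT replicate 1 and ADPKD replicate 2, *Cd3g* in WT replicate 1, *Cd3e* in WT replicate 2, *Cd79b* and *Cx3cr1* in ADPKD+MMPP replicate 1. *Itgax*, which encodes CD11c, had 0.565 and 0.511 FPKM in WT, 2.81 and 1.85 in ADPKD and 6.74 and 8.02 in ADPKD+MMPP, and was called higher in each of the 3 comparisons. *Clec9a* was called lower in ADPKD, where it fell by 1.24 on the log2 scale to 0.468 and 0.237 FPKM, and higher after treatment, at 1.29 and 1.17. *Zbtb46*, of classical dendritic cells and of endothelium, had 4.705 and 5.292 FPKM in WT and 3.401 and 3.428 in ADPKD. In ADPKD+MMPP it had 1.832 and 2.155. Its groups did not overlap, and it was called lower only in ADPKD+MMPP against WT. Under quantile normalization its log2 fold change in ADPKD+MMPP against ADPKD turned to 0.101. Endothelial markers fell in both comparisons, from a sum of 733 and 605 in WT to 287 and 261 in ADPKD and 104 and 106 in ADPKD+MMPP. In ADPKD 6 of 6 were called lower, where 12.5% of all tested genes were, and after treatment 4 of 6, where 43.0% were. Of 2 tested non-renal control genes, *Mbp* was called higher in ADPKD, and *Alb* passed the filter only through ADPKD+MMPP, where it had 1.30 and 1.80 FPKM against 0.0266 to 0.601 elsewhere.

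Genes with the profile most like that of the classical chains and *Cd74* were sought among 7747 genes with a mean of at least 5 FPKM in a group and a range of at least 1 on the log2 scale. The measure was Pearson's r of log2(FPKM + 1) with the mean centred profile of *H2-Aa*, *H2-Ab1*, *H2-Eb1* and *Cd74* over the 6 libraries, and 23 genes had an r of at least 0.9. The 8 highest were *Mep1a* (r = 0.959), *Cutal*, *Tmem19*, *Ifnb1* (r = 0.949), *Ugt8a*, *Nmrk1*, *Aqp4* and *Slc5a10* (r = 0.936). *Mep1a*, a brush border metalloprotease, had 3.92 and 4.58 FPKM in WT, 36.2 and 5.67 in ADPKD and 1.77 and 1.86 in ADPKD+MMPP. *Ifnb1*, the type I interferon beta, had 4.19 and 1.90, then 39.1 and 10.7, then 1.81 and 0.733. Each had its highest value in ADPKD replicate 1.

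Among the members outside the profile, *H2-DMa* had an r of 0.955 with it, *H2-DMb1* -0.00480 and *Ciita* -0.231. Of the macrophage markers with enough signal *Adgre1* had the highest r, 0.806, and *Lyz2* had 0.0854. With 6 libraries in 3 groups, which share these groups' depth and preparation, these values are a description and carry no test.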

How the data were processed

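RNA of DBA-positive kidney cells came from 2 libraries each of WT, ADPKD and ADPKD+MMPP mice. By the study's methods and the submitters' processing notes, the authors aligned reads to mm10 (GRCm38) with HISAT2 2.1.0 and counted them with featureCounts 1.6.0. The deposited values are FPKM per gene symbol. The annotation, strand setting and FPKM step are not given in the sources used here. DESeq2, used by the authors on counts, was not run on FPKM.

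GENCODE vM21 matched 53253 symbols. FPKM times exon length gave steps of single reads (98.2% to 98.8% of low values whole within 0.02) and so the depth, and intervals for counting error were not computed. With FPKM of 1 or more required in 2 libraries, 14862 genes entered 1 model of all 6 libraries, fitted on log2(FPKM + 1) by limma 3.58.1 under R 4.3.3. Exact permutation of 2 against 2 libraries cannot give p under 0.333. The fit was tested on simulated data. Coding sequences were aligned with Biopython 1.88.

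Members and lists were chosen with earlier results of these data known. Named are all members, genes of the pathway lists, the 4 first-listed markers per cell type and the 8 genes most like the profile; other markers were named after their values were seen. One gene of the interferon gamma list is not reported here. Alternatives covered pseudocount, filter, scaling, trend, groups fitted, thresholds, centring by exon share, a replicate block and leaving out each library.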

Additional observations from a re-analysis of the deposited data

How the results depend on the processing

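The count of members called in ADPKD against WT, 2 as reported, was 1 with a common sum, 1 under quantile normalization, 0 without the filter, 0 with only the pair of groups fitted, 0 with a pseudocount of 0.1 and 0 at an adjusted p under 0.05, and it ran from 0 to 6 over the leave-one-out fits. In ADPKD+MMPP against ADPKD the 5 calls ran from 2 to 7 over the leave-one-out fits, and in ADPKD+MMPP against WT the 2 calls ran from 2 to 5 and were 5 with only the pair of groups fitted. With the replicate number as a block, 4 members were called in ADPKD against WT, with *H2-Ab1* and *H2-DMa* added, and 7 in ADPKD+MMPP against ADPKD, with *H2-Aa* and *Cd74* added. For each tested gene, the replicate 1 minus replicate 2 difference in log2(FPKM + 1) was taken within each group. Over genes these differences correlated with r = 0.129 between WT and ADPKD and 0.0137 between ADPKD and ADPKD+MMPP. The r was -0.00800 between WT and ADPKD+MMPP, so same-numbered libraries shared little beyond the number. The median of the members in ADPKD+MMPP against WT, 0.26, was -0.13 with a common sum. There *H2-Aa* was at -0.13 and *Cd74* at -0.0845, *Cd74* was at -0.16 under quantile normalization, and *H2-Aa* ran from -0.0001, without WT replicate 2, to 0.51 over the leave-one-out fits. Centred by exon share, *H2-Eb1* was at 0.38 and *H2-DMa* at 0.48 in that comparison, and *Cd74* at 0.75 in ADPKD+MMPP against ADPKD. Scaling moved the median of all genes in ADPKD+MMPP against ADPKD from -0.36 to -0.55 with a common sum, 0.10 under quantile normalization and 0.15 when centred, and *H2-DMa*, at -0.83, was not called under quantile normalization. For single members, directions did not reverse in ADPKD against WT under any alternative run. Alternatives that changed only the filter, test, threshold or treated libraries kept the same fold changes there, so they could not reverse them. Of 112 values 20 lost their call, all of *H2-Aa* or *Cd74*, the only members with a call to lose. Another 6 values, of other members, gained a call. The cause of these changes was not tested.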
